A study of Homo sapiens with 12 samples.

Results

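The G1 cyclins, the kinases they activate and their inhibitors are described here as 10 genes, chosen by gene symbol: CCND1, CCND2, CCND3, CDK4, CDK6, CCNE1, CCNE2, CDK2, CDKN1A and CDKN1B. Each of the 10 symbols was found among the 23710 genes listed in all 12 libraries. The libraries are bulk RNA-seq of RCC4, an established human clear cell renal carcinoma line, collected 72 h after transfection with 40 pmol of siRNA. MESH1, listed under its symbol HDDC3, is the human homolog of a bacterial enzyme that degrades the starvation signal ppGpp, and it removes a phosphate from NADPH in human cells. It was silenced with siMESH1-CDS, against its coding sequence, or siMESH1-7002, against its 3′UTR, and the study asked how the transcriptome, cell cycle genes included, responds. Each siRNA had 3 libraries and 3 of its own from cells given siNT, a non-targeting siRNA. The 6 libraries of the siMESH1-CDS experiment ran on lanes 4 to 7, and the 6 of the siMESH1-7002 experiment all ran on lane 2. The cells are 1 line and each knockdown is transient, and the labels call the 3 libraries of a group biological replicates without saying what sets them apart, so p-values measure the spread between these libraries.

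Cells commit to division in G1. D cyclins bind CDK4 and CDK6 and E cyclins bind CDK2, and these kinases phosphorylate the retinoblastoma protein, which then releases E2F transcription factors that switch on genes of DNA synthesis, the E cyclins among them. CDKN1A (p21) and CDKN1B (p27) bind cyclin-CDK complexes and block CDK2, while they also help D cyclins assemble with CDK4 and CDK6; CDKN1A is a classic target of p53. In clear cell renal carcinoma CCND1 is known as a target of hypoxia-inducible factor, which stays active where VHL is lost.

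The sequences that the siRNAs target are shown because 2 members carry in their own 3′UTR the heptamer that a guide strand of siMESH1-CDS would pair with through its seed (guide bases 2 to 8). The guide is taken as the exact complement of the target, and capitals mark the site that pairs with the seed.
siMESH1-CDS target in HDDC3: gggaatcactgACATTGTg
siMESH1-7002 target in HDDC3: ctgaaggtctcctGCTAACTa
On GRCh38 the siMESH1-CDS target lies at chr15:90932064-90932082, minus strand, in coding sequence of HDDC3, and the siMESH1-7002 target at chr15:90931109-90931129, minus strand, in its 3′UTR. The libraries were aligned to hg19 according to the labels, so these positions come from the reference annotation (GENCODE 29) and not from the count files. The ACATTGT site of siMESH1-CDS occurred 2 times in the 3′UTR of CCND1 and 3 times in that of CDK6, and was not found in the 3′UTR of the other 8 members. Among 12221 genes tested with siMESH1-CDS that have an annotated 3′UTR, 18.16% hold at least 1. The CDK6 3′UTR, at 10219 bases, was the longest of the members, and that of CCND1 had 3192 bases. The GCTAACT site of siMESH1-7002 was found in no member, against 6.736% of 12486 genes. The 5 sites are printed with their neighbouring bases, sense strand.
CCND1 site at chr11:69653296-69653325, plus strand: gtatctctttcACATTGTttgctgctattg
CCND1 site at chr11:69653380-69653409, plus strand: tttctcttagaACATTGTattacagatgcc
CDK6 site at chr7:92613132-92613161, minus strand: tgtactacttaACATTGTtctaattcagta
CDK6 site at chr7:92613098-92613127, minus strand: gaggaacaggaACATTGTtttctagagcaa
CDK6 site at chr7:92611198-92611227, minus strand: atgcatgtttcACATTGTgacagataaaga
The part of these sites in the changes of CCND1 and CDK6 given below was not tested.

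Reads in genes numbered 34063155 to 49134129 per library in the siMESH1-CDS experiment and 24787804 to 31651125 in the siMESH1-7002 experiment. Of all reads in a siMESH1-CDS experiment file, 14.7% to 15.5% with siNT and 18.4% to 20.8% with siMESH1-CDS fell in no annotated feature, and 5.31% to 16.2% and 2.51% to 3.21% were not aligned, without overlap between groups; their part in the members' changes was not tested. HDDC3 was at 2.11% of its siNT level with siMESH1-CDS (log2 fold change -5.56, adjusted p = 0.00174) and at 10.5% with siMESH1-7002 (-3.25, adjusted p = 2.51e-12), with no overlap between groups. The siMESH1-CDS value rests on 5, 0 and 11 reads per library against 292 to 438 with siNT: without siMESH1-CDS replicate 2 the log2 change was -4.93, without replicate 3 it was -6.66, and with correction for GC content (below) it was -3.67 (adjusted p = 0.000646). All 6 markers of the renal line had a mean above 1 CPM (read counts scaled to library size by TMM) in every group, but 5 of them had lower means with siMESH1-CDS than with its siNT, without overlap: PAX8 (58.4 against 168), PAX2 (6.07 against 18.1), CA9 (3.81 against 30.5), KRT8 (11.7 against 90.6) and KRT18 (2.76 against 77.3, with 1 library at 0.286). VIM was at 3486 against 3511, and the part of these shifts in the members' changes was not tested. PTPRC, CD3E, PECAM1 and CDH5, which mark leukocytes and endothelium, had means of 0 to 0.0273 CPM. CD68 and COL1A1, the other markers listed for cells foreign to the line that were above 1 CPM, were at 54.7 and 20.8 CPM with siNT and 3.57 and 3.96 with siMESH1-CDS; in the other experiment CD68 was at 105 with siNT and 140 with siMESH1-7002 and COL1A1 between 10.5 and 13.4 with siNT and at 27.9 with siMESH1-7002, and their part in the members' changes was not tested. Broad change was the background of every result: the edgeR quasi-likelihood test at an adjusted p (Benjamini-Hochberg) under 0.05 called 74.1% of 13395 genes with siMESH1-CDS (36.9% higher, 37.2% lower) and 53.3% of 13568 with siMESH1-7002 (26.6% higher, 26.7% lower). The 3 siMESH1-CDS libraries also lay far apart, with a biological coefficient of variation of 0.299 in that experiment against 0.0490 in the other. Their changes followed the GC content of transcripts: over 10 classes of rising GC content the median log2 change ran from 1.11 to -3.67 with siMESH1-CDS and from 0.14 to -0.09 with siMESH1-7002. Member changes with siMESH1-CDS are therefore given as fitted and again with each library corrected for GC content. That correction moved the share of calls that were higher from 49.8% to 60.0% with siMESH1-CDS and from 49.9% to 62.3% with siMESH1-7002. The median log2 change of all genes tested moved with it from -0.05 to 0.17 and from 0.01 to 0.07. The libraries are bulk RNA, so fewer cells in a phase that expresses a gene and less of its RNA per cell cannot be told apart.

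With siMESH1-CDS, 8 of the 10 members passed the test, 7 of them lower (CCND1, CCND3, CDK4, CDK6, CCNE1, CCNE2 and CDK2) and 1 higher (CCND2), a share close to the 74.1% of all genes. With siMESH1-7002, 9 of 10 passed, 5 lower (CCND1, CCND3, CCNE1, CCNE2 and CDK2) and 4 higher (CCND2, CDK6, CDKN1A and CDKN1B), against 53.3% of all genes. The median log2 change over the members was -1.36 with siMESH1-CDS and -0.28 with siMESH1-7002, beside -0.05 and 0.01 over all genes tested. In total 5 members were lower with each siRNA, 1 was higher with each, 1 (CDK6) was called in opposite directions, and 3 (CDK4, CDKN1A and CDKN1B) were called with only 1 of them. With the siMESH1-CDS changes corrected for GC content, 3 were called lower with each siRNA (CCND1, CCNE2 and CDK2) and 2 higher with each (CCND2 and CDKN1A). The share of all genes called alike or in opposite directions with both siRNAs was not counted. Whether these joint counts of members differ from it therefore cannot be said. The groups did not overlap for 8 members with siMESH1-CDS and 9 with siMESH1-7002, where 82.7% and 59.5% of all genes tested did not overlap. After GC correction 6 members were called with siMESH1-CDS, beside 67.6% of all genes, and 5 of these, CCND1, CCND2, CDK6, CCNE2 and CDK2, were called in the same direction as without it. CDKN1A was the other, called higher, and CCND3, CDK4 and CCNE1 were no longer called.

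**Figure D1:**
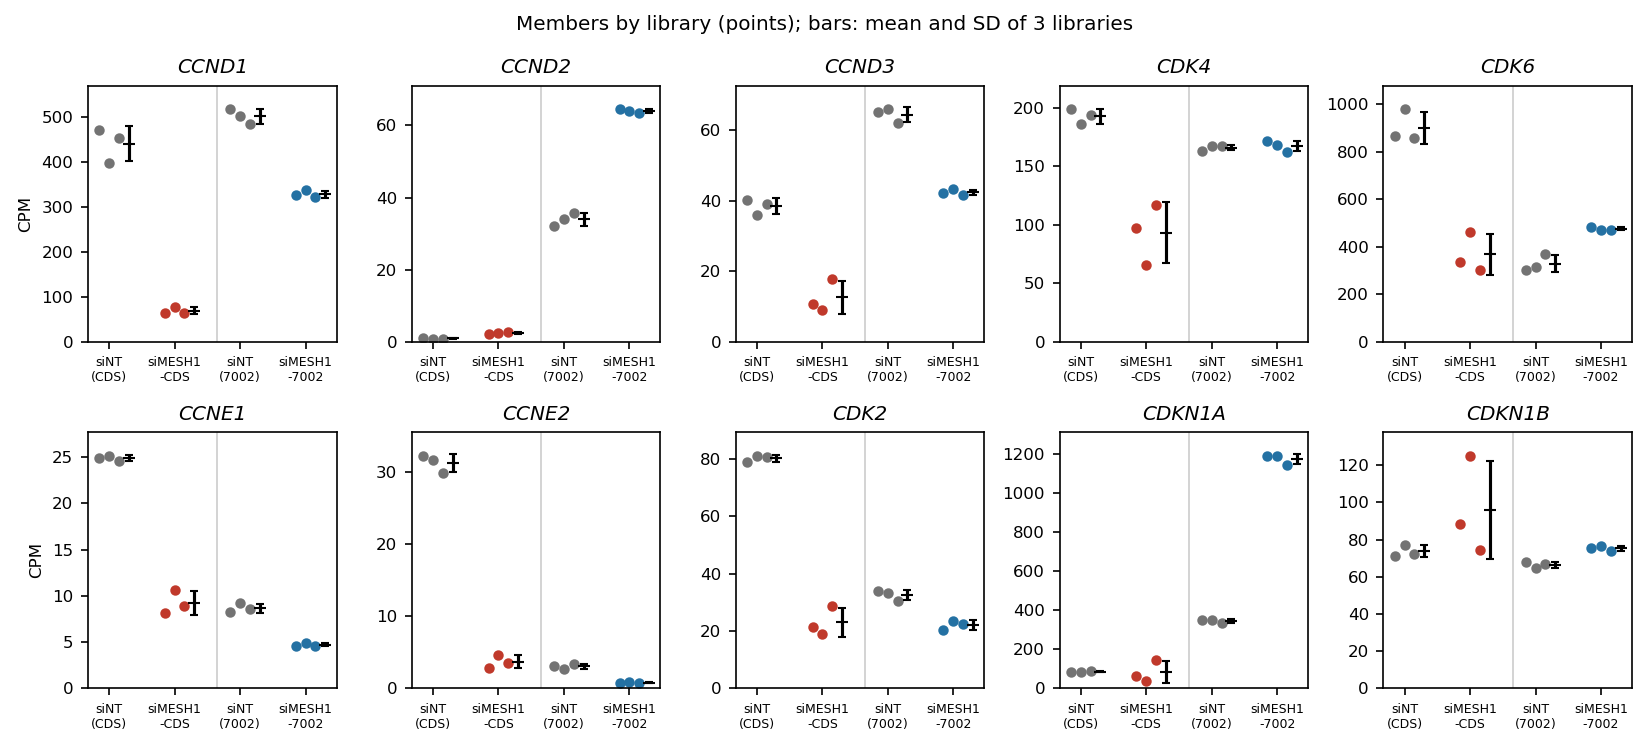
Level of each member (CPM, linear axis from 0) in the 12 libraries. Points are libraries, bars beside them the mean and SD of 3, and a vertical line separates the siMESH1-CDS experiment (left) from the siMESH1-7002 experiment (right). CCND1, CCND3, CCNE1, CCNE2 and CDK2 are lower with each siRNA than with its own siNT. The siNT levels of CCND2, CCNE1, CCNE2, CDK2, CDK6 and CDKN1A lie far apart between the experiments.

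CCND1 (chr11:69641087-69654474, plus strand on GRCh38) encodes cyclin D1, the most abundant of the D cyclins in RCC4 cells. Its levels were 472, 397 and 453 CPM with siNT and 64.8, 77.6 and 64.5 CPM with siMESH1-CDS. In the other experiment they were 517, 503 and 484 CPM with siNT and 326, 337 and 321 CPM with siMESH1-7002. Every knockdown library was below every siNT library of its experiment, and the drop was far deeper with siMESH1-CDS. Cyclin D1 RNA was left at 15.7% of siNT with siMESH1-CDS (log2 fold change -2.67, SE 0.12, adjusted p = 0.000178) and at 65.4% with siMESH1-7002 (-0.61, SE 0.04, adjusted p = 2.92e-09). Its GC content of 50.3% places it in a class whose median change was -0.07, and GC correction left the siMESH1-CDS change at -2.20 (adjusted p = 0.000295). On the 2 lanes that held a library of each group, the log2 differences were -2.87 on lane 4 and -2.81 on lane 6.

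CCND2 (chr12:4273772-4305350, plus strand), which encodes cyclin D2, was the only member called higher with each siRNA as fitted, and was joined by CDKN1A where the siMESH1-CDS changes were corrected for GC content. It was scarce in the siMESH1-CDS experiment, at 1.18, 0.886 and 0.881 CPM with siNT (40 to 63 reads) and 2.06, 2.47 and 2.59 CPM with siMESH1-CDS (65 to 95 reads). In the siMESH1-7002 experiment it stood at 32.2, 34.0 and 35.8 CPM with siNT and 64.5, 64.0 and 63.6 CPM with siMESH1-7002. The groups were separate in each experiment, although the siNT levels of the experiments were 0.983 ± 0.173 and 34.0 ± 1.80 CPM (SD, n = 3). Cyclin D2 RNA rose 2.41-fold with siMESH1-CDS (log2 1.27, SE 0.22, adjusted p = 0.00335) and 1.89-fold with siMESH1-7002 (log2 0.92, SE 0.06, adjusted p = 7.22e-10). With GC correction the siMESH1-CDS change was 1.01 (adjusted p = 0.00596).

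CCND3 (chr6:41934933-42050357, minus strand), the gene of cyclin D3, was at 40.3, 36.0 and 39.1 CPM with siNT and at 10.8, 9.08 and 17.9 CPM with siMESH1-CDS. With siMESH1-7002 it was at 42.2, 43.2 and 41.7 CPM, against 65.2, 65.9 and 62.1 CPM with its siNT. Each siRNA group was lower than its control without overlap, and the siMESH1-CDS libraries varied more, with a coefficient of variation of 36.9% against 5.73% for their siNT. The log2 fold change was -1.61 with siMESH1-CDS (SE 0.27, adjusted p = 0.00289) and -0.60 with siMESH1-7002 (SE 0.05, adjusted p = 6.21e-08). CCND3 transcripts have a GC content of 56.2%, in a class whose median change with siMESH1-CDS was -1.64, and after GC correction the siMESH1-CDS change was 0.31 and did not pass the test (adjusted p = 0.209), while the siMESH1-7002 change was -0.47.

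The makeup of the D cyclins shifted with these changes. Per length (CPM per kilobase of exon), CCND1 made up 92.9% to 93.2% of the summed D cyclin level with siNT and 79.5% to 89.4% with siMESH1-CDS. Its share was 86.5% to 87.2% with siNT and 80.5% to 81.0% with siMESH1-7002. The share of CCND2 went from between 0.122% and 0.158% to between 1.84% and 2.15% with siMESH1-CDS, and from between 3.66% and 4.31% to between 10.4% and 10.8% with siMESH1-7002. The share of CCND3 went from between 6.62% and 7.01% to between 8.70% and 18.3% with siMESH1-CDS. With siMESH1-7002 it went from between 9.16% and 9.45% to between 8.66% and 8.71%. The shares were not corrected for GC content, which was 50.3% for CCND1, 45.5% for CCND2 and 56.2% for CCND3. Cyclin D1 remained the main D cyclin in all 12 libraries. The sum of the 3 levels per length was 98.0 ± 8.44 with siNT and 16.8 ± 1.20 with siMESH1-CDS, and 120 ± 3.42 with siNT and 84.2 ± 1.78 with siMESH1-7002 (SD, n = 3).

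**Figure D2:**
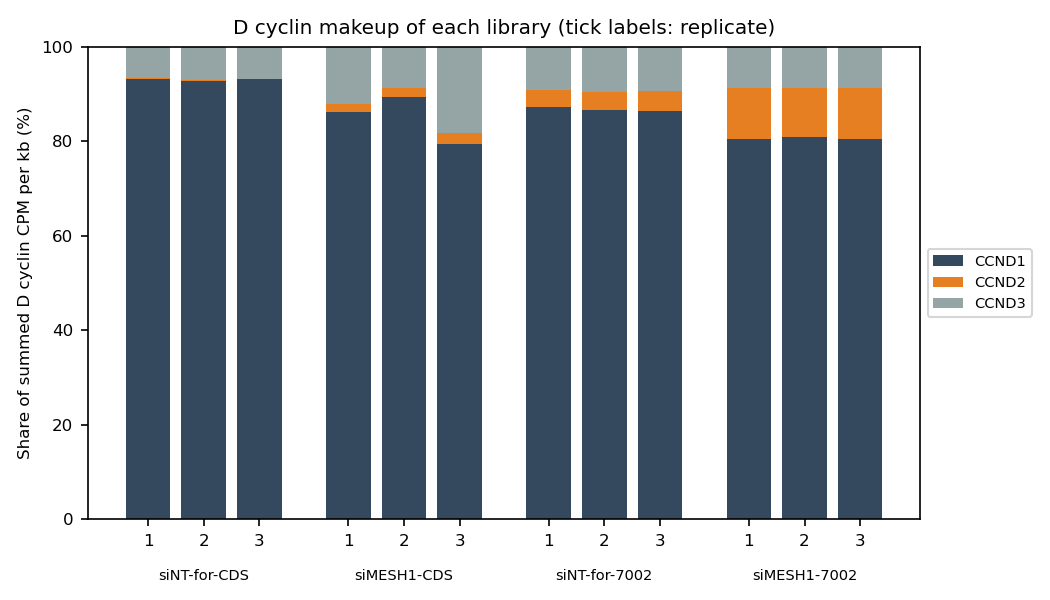
Share (%) of each D cyclin in the summed CPM per kilobase of CCND1, CCND2 and CCND3. Each bar is a library, numbered by replicate within its group. The CCND2 segment is wider with each siRNA than with its siNT and reaches 10.8% with siMESH1-7002. The CCND3 segment is wider than with siNT for siMESH1-CDS, up to 18.3%, and narrower for siMESH1-7002.

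CDK4 (chr12:57747727-57756013, minus strand), a kinase partner of the D cyclins, differed between the siRNAs. It was at 199, 186 and 194 CPM with siNT and 97.3, 65.9 and 117 CPM with siMESH1-CDS. With siMESH1-7002 it was at 171, 168 and 162 CPM, close to its siNT at 163, 167 and 167 CPM. The siMESH1-CDS group was below its control in every library, and the siMESH1-7002 group overlapped its control. The log2 fold change was -1.05 with siMESH1-CDS (SE 0.21, adjusted p = 0.00527). With siMESH1-7002 it was 0.01 (95% interval -0.11 to 0.13, adjusted p = 0.824, exact permutation p = 0.6 for 3 against 3). CDK4 has a GC content of 53.6%, in a class whose median was -0.76 with siMESH1-CDS, and GC correction moved that change to 0.12, which did not pass the test (adjusted p = 0.21). The same correction gave 0.13 with siMESH1-7002, which passed it (adjusted p = 0.00313). After correction the median change of all genes was 0.17 with siMESH1-CDS, above that of CDK4, and 0.07 with siMESH1-7002.

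CDK6 (chr7:92604921-92836594, minus strand), the other partner of the D cyclins, moved in opposite directions. Its levels were 864, 978 and 857 CPM with siNT and 336, 464 and 303 CPM with siMESH1-CDS. With siMESH1-7002 they were 483, 471 and 472 CPM, and 304, 313 and 368 CPM with the siNT of that experiment. No library overlapped in either experiment, and the siNT levels were themselves apart, at 900 ± 68.1 and 328 ± 35.0 CPM (SD, n = 3). CDK6 RNA was left at 40.9% of siNT with siMESH1-CDS (log2 fold change -1.29, SE 0.18, adjusted p = 0.00141) and rose 1.45-fold with siMESH1-7002 (log2 0.53, SE 0.06, adjusted p = 8.91e-07). Its transcripts are GC-poor at 39.5%, in a class whose median was 1.02 with siMESH1-CDS, and the corrected change was -2.08 (adjusted p = 1.41e-05). CDK6 is the member with 3 copies of the siMESH1-CDS seed site printed above. Per length, the ratio of CDK6 to CDK4 was 1.12 to 1.36 with siNT and 0.671 to 1.82 with siMESH1-CDS, so these groups overlapped, and it was 0.481 to 0.570 with siNT and 0.725 to 0.751 with siMESH1-7002.

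The E cyclins, partners of CDK2 at the start of S phase, were lower with each siRNA, and CCNE2 more than CCNE1. CCNE1 (chr19:29811898-29824308, plus strand) was at 24.9, 25.1 and 24.6 CPM with siNT and 8.10, 10.7 and 8.95 CPM with siMESH1-CDS. It was at 8.23, 9.20 and 8.58 CPM with siNT and 4.58, 4.90 and 4.62 CPM with siMESH1-7002. The groups were separate in each experiment. The log2 fold change of CCNE1 was -1.43 with siMESH1-CDS (SE 0.16, adjusted p = 0.000726) and -0.88 with siMESH1-7002 (SE 0.10, adjusted p = 1.27e-06). With GC correction the siMESH1-CDS change was -0.32 and did not pass the test (adjusted p = 0.406), and the siMESH1-7002 change was -0.77. CCNE1 has a GC content of 52.9%, in the same class as CDK4.

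CCNE2 had the largest fall of the members with each siRNA. It was at 32.2, 31.6 and 29.8 CPM with siNT and at 2.88, 4.66 and 3.51 CPM with siMESH1-CDS. In the other experiment it was low already with siNT, at 3.06, 2.69 and 3.33 CPM (67 to 97 reads), and at 0.797, 0.912 and 0.693 CPM with siMESH1-7002 (21 to 27 reads). Neither pair of groups overlapped. CCNE2 RNA was left at 11.8% of siNT with siMESH1-CDS (log2 fold change -3.08, SE 0.22, adjusted p = 0.000287) and at 26.4% with siMESH1-7002 (-1.92, SE 0.18, adjusted p = 1.87e-07). It is the most GC-poor member at 36.9%, in a class whose median was 1.11 with siMESH1-CDS, and its corrected change was -3.94 (adjusted p = 1.99e-05). The ratio of CCNE2 to CCNE1 per length fell outside the siNT range with each siRNA, from 0.703 to 0.749 down to 0.206 to 0.253 with siMESH1-CDS and from 0.170 to 0.225 down to 0.0870 to 0.108 with siMESH1-7002.

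CDK2 (chr12:55966769-55972784, plus strand), the kinase that E cyclins activate, was at 78.8, 81.1 and 80.8 CPM with siNT and 21.4, 18.9 and 28.7 CPM with siMESH1-CDS. It was at 34.1, 33.2 and 30.6 CPM with siNT and 20.2, 23.5 and 22.4 CPM with siMESH1-7002. All knockdown libraries lay below their controls. CDK2 RNA was left at 28.7% of siNT with siMESH1-CDS (log2 fold change -1.80, SE 0.18, adjusted p = 0.000509) and at 67.6% with siMESH1-7002 (-0.56, SE 0.07, adjusted p = 4.70e-06). GC correction left the siMESH1-CDS change at -1.69 (adjusted p = 5.52e-05), and the within-lane differences were -1.46 on lane 4 and -1.92 on lane 6.

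CDKN1A (chr6:36676460-36687339, plus strand), the p21 inhibitor, rose with siMESH1-7002 more than any other member. It was at 350, 351 and 336 CPM with siNT and at 1192, 1188 and 1144 CPM with siMESH1-7002, a 3.40-fold rise (log2 1.76, SE 0.04, adjusted p = 1.63e-14). In the siMESH1-CDS experiment it was at 84.3, 83.0 and 87.5 CPM with siNT and at 64.5, 36.4 and 144 CPM in siMESH1-CDS replicates 1, 2 and 3. Replicates 1 and 2 were below all siNT libraries and replicate 3 was above all of them. The log2 fold change with siMESH1-CDS was -0.06 (SE 0.47, 95% interval -1.37 to 1.26, adjusted p = 0.918, exact permutation p = 0.7). Without replicate 3 it was -0.77 and passed the test (adjusted p = 0.0269), and without replicate 2 it was 0.31 (adjusted p = 0.393). The within-lane differences were 0.77 on lane 4 and -0.44 on lane 6. CDKN1A is the most GC-rich member at 58.1%, in a class whose median was -2.56 with siMESH1-CDS, so that it stood 2.51 above that median. After GC correction the change with siMESH1-CDS was 2.22 and passed the test (adjusted p = 2.21e-05), and that with siMESH1-7002 was 1.90.

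CDKN1B (chr12:12715058-12722371, plus strand), the p27 inhibitor, was at 71.2, 77.3 and 72.5 CPM with siNT and 88.3, 125 and 74.1 CPM with siMESH1-CDS. With siMESH1-7002 it was at 75.6, 76.5 and 73.8 CPM, against 68.0, 64.9 and 66.6 CPM with siNT. The siMESH1-7002 groups were separate by a small margin, and the siMESH1-CDS group overlapped its control through replicate 3. The log2 fold change was 0.18 with siMESH1-7002 (SE 0.05, adjusted p = 0.00601). With siMESH1-CDS it was 0.38 (95% interval -0.18 to 0.93, adjusted p = 0.129, exact permutation p = 0.2), and without replicate 3 it was 0.52 and passed (adjusted p = 0.0227). GC correction gave 0.41 with siMESH1-CDS, which did not pass (adjusted p = 0.159), and 0.25 with siMESH1-7002.

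**Figure D3:**
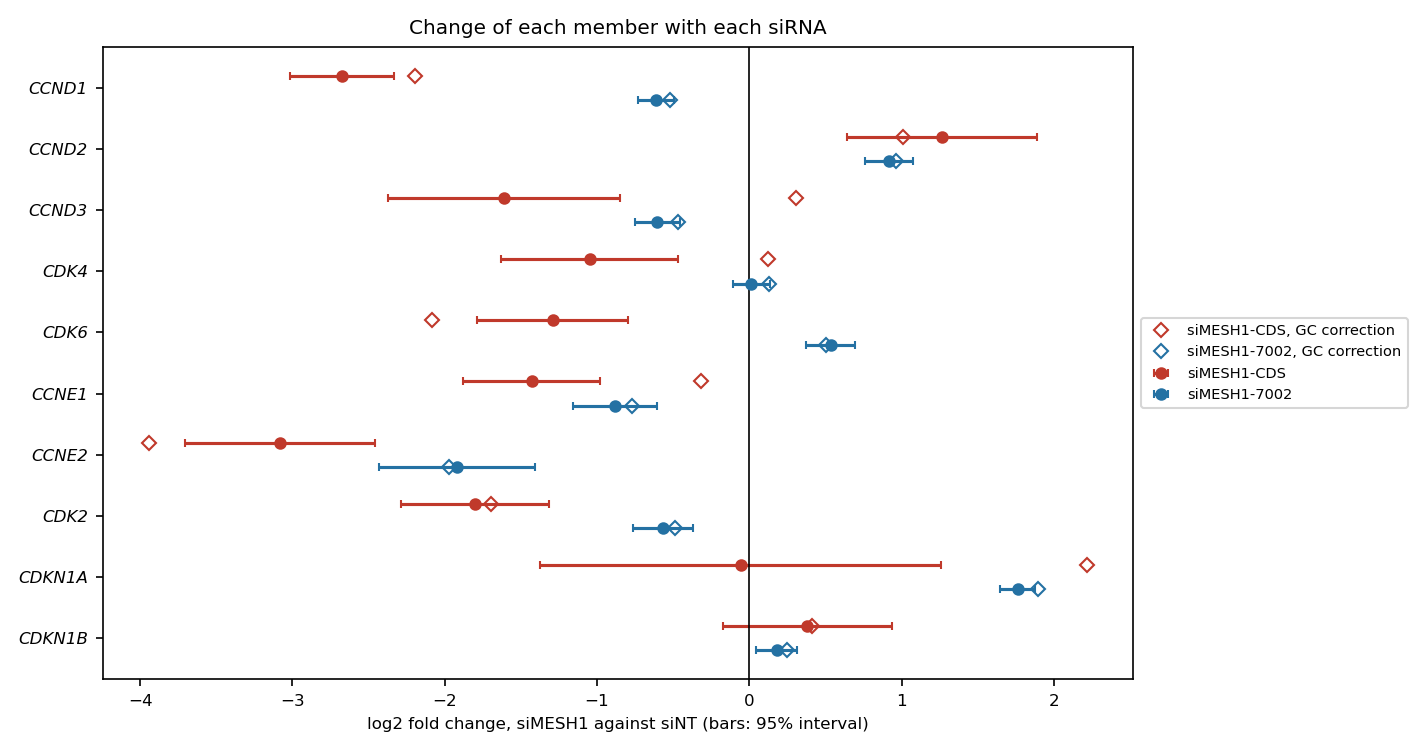
Log2 fold change of each member against siNT with siMESH1-CDS (red) and siMESH1-7002 (blue). Filled circles with bars are the fitted change and its 95% interval (t distribution with 4 degrees of freedom), and open diamonds the change after GC correction. For siMESH1-CDS the diamonds of CCND3, CDK4 and CDKN1A lie to the right of 0, at 0.31, 0.12 and 2.22, while CCND1, CDK6, CCNE2 and CDK2 lie left of 0 either way.

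The inhibitors were set against their target kinase within each library. Per length, CDKN1A stood at 1.31 to 1.38 times CDK2 with siNT and at 2.46 to 6.41 times CDK2 with siMESH1-CDS. In the other experiment the ratio was 13.5 ± 0.459 (SD, n = 3) with siNT and 64.5 to 75.1 with siMESH1-7002. The groups did not overlap with either siRNA, also with siMESH1-CDS, where CDKN1A alone did not separate. The ratio of CDKN1B to CDK2 was 1.24 to 1.32 with siNT and 3.58 to 9.16 with siMESH1-CDS, and 2.71 to 3.02 with siNT and 4.51 to 5.17 with siMESH1-7002. A ratio within a library does not depend on its scaling, though the GC content of the genes in it differs (58.1% for CDKN1A, 47.7% for CDKN1B and 48.4% for CDK2). D cyclins against E cyclins, summed per length, went from 5.19 to 6.14 with siNT to 3.43 to 4.07 with siMESH1-CDS, and from 28.1 to 31.3 with siNT to 40.4 to 42.4 with siMESH1-7002, in opposite directions.

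**Figure D4:**
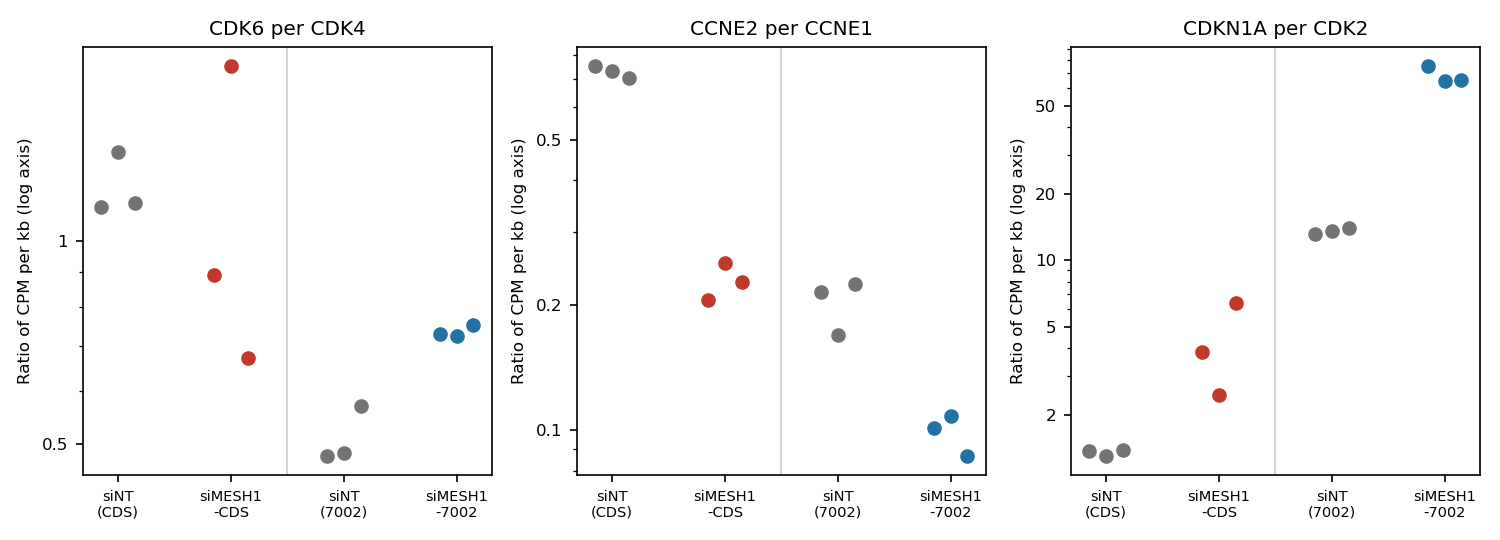
Ratios of CPM per kilobase within each library for CDK6 to CDK4, CCNE2 to CCNE1 and CDKN1A to CDK2 (log axis), with 3 points per group. The CCNE2 to CCNE1 ratio is lower and the CDKN1A to CDK2 ratio higher with each siRNA than with its siNT, and the CDK6 to CDK4 ratio with siMESH1-CDS spreads on each side of its siNT, from 0.671 to 1.82.

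Whether the changes differed between the siRNAs was tested as the siMESH1-CDS change minus the siMESH1-7002 change over all 12 libraries. That fit filtered and scaled the 12 libraries together, so its values are not plain differences of the changes given above. The difference was called for 8 of 10 members, all of them lower with siMESH1-CDS. Of 14154 genes 69.7% were called, 30.0% higher and 39.7% lower, and the median over all genes was -0.24. The difference was -2.21 for CCND1 (SE 0.13, adjusted p = 7.58e-07), -1.98 for CDK6 (SE 0.20, adjusted p = 2.14e-05) and -1.97 for CDKN1A (SE 0.52, adjusted p = 0.00658). CCND1 and CDK6 are the members with the siMESH1-CDS seed site, and CDKN1A has none. Of all genes tested with an annotated 3′UTR, 18.16% hold that site. The part of the sites in these differences was not tested. For CDK2, CCNE2, CDK4, CCND3 and CCNE1 it was -1.39, -1.31, -1.21, -1.16 and -0.70. It was not called for CCND2 (0.20, 95% interval -0.29 to 0.69, adjusted p = 0.329) or CDKN1B (0.05, 95% interval -0.54 to 0.64, adjusted p = 0.852). After GC correction 6 members were called, beside 61.2% of all genes: CCND1 (-1.68), CDK6 (-2.66), CCNE2 (-2.05) and CDK2 (-1.23) were still called lower, and CDKN1A (0.39, adjusted p = 0.00708) and CCND3 (0.83, adjusted p = 0.00481) were called higher. CDK4 (0.03, adjusted p = 0.826) and CCNE1 (0.47, adjusted p = 0.28) were then not called. Each siRNA was used in 1 experiment only, so a difference between siRNAs and a difference between experiments cannot be told apart.

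**Figure D5:**
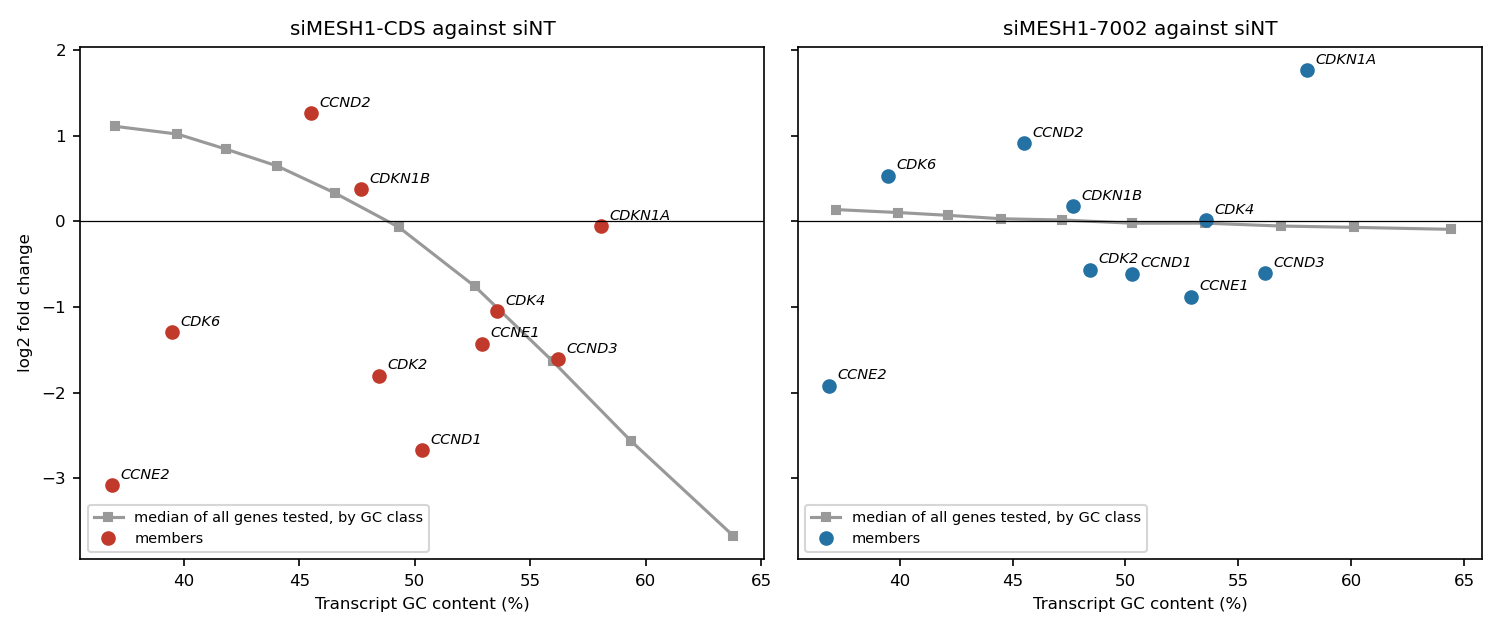
Log2 fold change of the members against transcript GC content (%) with siMESH1-CDS (left) and siMESH1-7002 (right). Grey squares are medians of all genes tested in 10 classes of GC content. On the left CCND3, CDK4 and CDKN1B lie within 0.29 of their class median, CCND1, CDK6, CCNE2 and CDK2 lie 1.73 to 4.19 below it and CDKN1A 2.51 above it.

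Members also varied among the siMESH1-CDS libraries in a split way. In 5 members (CCND1, CDK6, CCNE1, CCNE2 and CDKN1B) replicate 2 was highest, and in the other 5 (CCND2, CCND3, CDK4, CDK2 and CDKN1A) replicate 3 was. The highest was 1.20 times the lowest for CCND1 and 3.96 times for CDKN1A. With siMESH1-7002 the coefficient of variation of the members ran from 0.720% (CCND2) to 13.7% (CCNE2).

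Levels were ordered per length of exon within each group. With siNT of the siMESH1-CDS experiment CCND1 led at 91.2 ± 8.04 CPM per kilobase, above CDK6 (73.4 ± 5.55) and CDK4 (60.8 ± 2.02), and CCND2 was last at 0.137 ± 0.0242 (SD, n = 3). In that order the neighbours CDKN1A and CDKN1B, and CCNE2 and CCND3, overlapped. With siMESH1-CDS CDKN1B led at 34.1 ± 9.35, and CDKN1B, CDK6, CDK4 and CDKN1A each overlapped the next in the order, which CCND1 closed. With siNT of the siMESH1-7002 experiment CDKN1A (113 ± 2.82) was above CCND1 (104 ± 3.38), and CCNE2 was last at 0.689 ± 0.0732. With siMESH1-7002 CDKN1A reached 385 ± 8.83, and CCND1, next in order, was at 67.9 ± 1.63. No neighbours overlapped in either group of that experiment. The experiments were scaled separately, so levels are set side by side only.

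The other genes of the pathway were taken from 7 lists of 53 genes, of which 50 were tested in each experiment. With siMESH1-CDS 17 were higher and 24 lower (82% of those tested), and with siMESH1-7002 12 were higher and 23 lower (70%), beside 74.1% and 53.3% of all genes. Their median log2 change was -0.30 and -0.14. The named genes of each list are those called in the same direction with both siRNAs with the largest changes.

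Among 10 E2F and DP factors, which drive S phase genes and dimerize to do so, 6 were lower and 3 higher with siMESH1-CDS. With siMESH1-7002 6 were lower and 1 higher. Those called were 90% and 70% of the list, beside 74.1% and 53.3% of all genes. E2F1 was at 40.1 ± 3.47 CPM with siNT and 0.366 ± 0.360 with siMESH1-CDS, and at 28.2 ± 1.53 with siNT and 4.90 ± 0.221 with siMESH1-7002 (SD, n = 3). Its siMESH1-CDS libraries ran from 0 to 0.719 CPM. E2F2 was at 6.78 ± 0.679 and 0.0951 ± 0.00887 CPM in the siMESH1-CDS experiment, the latter resting on 3 or 4 reads per library, and its log2 change with siMESH1-7002 was -3.42. The siMESH1-CDS changes of E2F1 and E2F2 were -6.78 and -6.11 as fitted and -3.58 and -3.90 after GC correction, called either way. Of the 3 retinoblastoma family genes, RBL1 (p107) was lower with each siRNA (-0.75 and -0.73) and RBL2 (p130) higher (0.44 and 0.29). GC correction moved RBL1 with siMESH1-CDS to -1.51. The siMESH1-CDS call of RBL2 (adjusted p = 0.0323) was lost with DESeq2 (0.101), RLE scaling (0.0619), library size alone (0.199), a lane term (0.133) and a replicate block (0.0524), and when any siNT library or siMESH1-CDS replicate 1 was left out, and its siMESH1-7002 call was lost in 1 model of 4 groups (0.12). RB1 itself was called with siMESH1-7002 alone, at -1.42.

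Kinases and phosphatases that set CDK activity by phosphorylation included CDC25A, a phosphatase that activates CDK2, which was lower with each siRNA (-3.08 and -1.56). PKMYT1, a kinase that inhibits CDK1, was at 7.39 and 0.0786 CPM with siNT and siMESH1-CDS and changed by -2.59 with siMESH1-7002. Its siMESH1-CDS libraries ran from 0 to 0.173 CPM, where 3 reads are 0.0661 to 0.0881 CPM before TMM scaling. The siMESH1-CDS change of PKMYT1 thus rests on few reads. With siMESH1-CDS the change of PKMYT1 was -6.53 as fitted and -2.67 after GC correction, and that of CDC25A -2.36 after it. Of the 7 genes in that list, 4 were lower and 3 higher with siMESH1-CDS, and 4 were lower with siMESH1-7002. Those called were 100% and 57.1% of the list, beside 74.1% and 53.3% of all genes. Of the other CDK inhibitors, CDKN2A and CDKN2B were at or near 0 in all groups and were not tested. Of the 4 tested, 3 were lower with siMESH1-CDS, and 1 was higher and 1 lower with siMESH1-7002. Those called were 75% and 50% of the 4, beside 74.1% and 53.3% of all genes. CDKN3, a phosphatase that acts on CDK2, was lower with each siRNA (-0.49 and -1.25). Its siMESH1-CDS call (adjusted p = 0.0413) was lost with a replicate block (0.0778), a lane term (0.0739), limma voom (0.0508) or no filter on low counts (0.0523), and when any siNT library or siMESH1-CDS replicate 1 was left out, while GC correction gave -0.95 and kept it. Of 5 other cyclins tested, 3 were higher and 1 lower with siMESH1-CDS, and 3 were higher and 2 lower with siMESH1-7002. Those called were 80% and 100% of the 5, beside 74.1% and 53.3% of all genes. Among them CCNF (cyclin F) was lower (-3.19 and -1.17) and CCNC (cyclin C, a Mediator subunit) higher (2.06 and 0.51).

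Of 13 ubiquitin ligase genes, 3 were higher and 6 lower with siMESH1-CDS, and 3 were higher and 4 lower with siMESH1-7002. Those called were 69.2% and 53.8% of the list, close to the 74.1% and 53.3% of all genes. DTL, the substrate receptor through which CUL4 ligases degrade p21, was at -2.89 and -2.30, and CKS1B, the cofactor with which SKP2 binds p27, at -1.77 and -1.10. Among 8 upstream regulators, 4 and 3 were higher and 3 and 4 lower with siMESH1-CDS and siMESH1-7002. With each siRNA those called were 87.5% of that list. FOXM1, which drives genes of late cell cycle phases, was lower with each siRNA (-3.36 and -1.54), and MDM2, a p53 target that degrades p53, was higher (2.05 and 0.37). After GC correction the siMESH1-CDS changes were -1.85 for FOXM1, 1.38 for MDM2, 1.24 for CCNC, -3.52 for DTL and -1.86 for CKS1B, all called. After the same correction RBL2 (-0.11, adjusted p = 0.259) and CCNF (-0.72, adjusted p = 0.118) did not pass the test with siMESH1-CDS.

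The genes whose pattern was nearest to a member were found by the root mean square difference over the 12 libraries of log2 CPM centred on the siNT mean of each experiment, among 12823 other genes. These log2 CPM were not corrected for GC content. CCNE1 lay nearest to WDR7 (0.10) and TYMS (0.12), and CCNE2 to UHRF1 (0.19) and MCM4 (0.24). TYMS encodes thymidylate synthase, MCM4 is part of the replicative helicase and UHRF1 binds hemimethylated DNA at replication forks. Whether the nearest genes of the members share a function was not tested. CDK2 lay nearest to TTF2 (0.11) and NEFM (0.12), CCND1 to STC1 (0.14) and SEMA6B (0.15), and CCND2 to DOCK4 (0.15) and GPR137B (0.15). The smallest distance was that of CDK4 to TRAPPC9 (0.04), followed by POLR2C (0.05). CDK6 was nearest to CD109 (0.08) and UHMK1 (0.09), CCND3 to CSTF2 (0.09) and DESI1 (0.09), and CDKN1B to H3F3B (0.06) and FOXA2 (0.06). CDKN1A stood most alone, with CD209 at 0.36 and EMP1 at 0.38.

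Promoter windows from 250 bases before to 50 after the transcription start were searched on both strands for the E2F motif in the spellings TTTCCCGC, TTTCGCGC, TTTGCCGC and TTTGGCGC. The RefSeq table (GRCh38.p14) held 9 windows of 6 members: CDKN1A, CCND3, CDK6, CDKN1B, CDK4 and CCNE1. None of the 9 held a match, and 3.315% of 35116 such windows did.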

How the data were processed

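Bulk RNA-seq of 12 RCC4 libraries was used, in 4 groups of 3. Gene counts came as the authors deposited them, not normalized; per the labels, stranded mRNA libraries were aligned to hg19 with HISAT2 and counted with HTSeq. Rows that name no gene, 38.9% to 49.3% of each file's total, were left out. The deposited DESeq2 tables hold the authors' mean signal, log2 fold changes and p-values and were not used. Counts were filtered with filterByExpr, scaled by TMM and tested by quasi-likelihood in edgeR 4.0.16 (R 4.3.3), each siRNA against its own siNT, and with p-values adjusted over all genes (Benjamini-Hochberg). CPM are TMM-scaled, and log2 CPM uses a prior count of 1. Intervals are 95% with 4 degrees of freedom. The same number was used for the difference, where 12 libraries leave more, so those intervals are wider than its test implies. Exact permutation tests were two-sided, and 3 against 3 libraries cannot give a p below 0.1, the value of each member whose groups were separate. Precision is limited by 3 libraries per group.

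GC content, exon length, 3′UTRs and positions came from GENCODE 29 (GRCh38), matched by symbol (21257 of 23710) or older symbol (1083). GC correction subtracted each library's lowess trend of log2 CPM with GC content (span 0.3) through an offset. Alternatives were DESeq2 1.42.0, limma 3.58.1 voom, other scalings and filters, a lane term, a replicate term, 1 model of 4 groups and leaving out each library. Genes named were the members, HDDC3, up to 2 genes per pathway list called in the same direction with both siRNAs (by the smaller change) and the 2 nearest genes of each member; RB1, CDKN2A and CDKN2B were named after their values were seen. Members and lists were chosen with earlier results of these data known. Counts were simulated with 2-fold changes and 1 variation for all genes. The edgeR step then recovered all changed genes at the variation of the siMESH1-7002 experiment and few at that of the siMESH1-CDS experiment. Larger changes were not simulated. 1 item of the fixed marker lists is not reported here.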

Additional observations from a re-analysis of the deposited data

Results flagged for a closer look

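As fitted without GC correction, the siMESH1-CDS change minus the siMESH1-7002 change passed the edgeR test for 8 members and for HDDC3. It passed for 69.7% of all 14154 genes tested as well, and siRNA and experiment cannot be told apart. In log2 units the difference was -2.21 for CCND1, -1.16 for CCND3, -1.21 for CDK4, -1.98 for CDK6, -0.70 for CCNE1, -1.31 for CCNE2, -1.39 for CDK2, -1.97 for CDKN1A and -2.47 for HDDC3. CDK6 was the member called in opposite directions, and CDK4 and CDKN1A were each called with 1 siRNA. With GC correction the difference was still called, in the same direction, for CCND1, CDK6, CCNE2 and CDK2. It was no longer called for HDDC3 (-0.46, adjusted p = 0.38), CDK4 or CCNE1, and it turned to higher for CCND3 (0.83) and CDKN1A (0.39), so for these 5 it rests on leaving GC content uncorrected.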

How the results depend on the processing

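The count of members called stayed within 1.5 times of 8, 9 and 8 (siMESH1-CDS, siMESH1-7002 and their difference) under every alternative run: 6 to 10, 7 to 10 and 6 to 8. The 7 members of the 1-model fit lost CCND3 (adjusted p = 0.059) and CDKN1B (0.54) with siMESH1-7002. In that model the pathway genes called with siMESH1-7002 went from 35 to 22, and all genes from 7235 to 2582, with a variation of 0.196 shared over the experiments. Library size alone moved the median of all genes from -0.05 to -0.31 with siMESH1-CDS, and no member's call changed. Same-number correlations of deviations were -0.05, 0.22 and 0.13 in the siMESH1-CDS experiment and -0.06, 0.04 and -0.08 in the other. Not every library correlated best with its own number. With so few libraries per group these values cannot decide whether replicate numbers pair them. A replicate block left 8, 9 and 8 members called, beside 69.2%, 51.4% and 66.3% of all genes. GC correction reversed the siMESH1-CDS change of CCND3 to 0.31 (0.27 with a replicate block too), CDK4 to 0.12 (0.12), CDKN1A to 2.22 (2.21) and RBL2 to -0.11 (-0.11), and the difference for CCND2 to -0.015 (-0.011), CCND3 to 0.83 (0.81), CDK4 to 0.028 (0.022), CCNE1 to 0.47 (0.39), CDKN1A to 0.39 (0.38) and CCNF to 0.33 (0.27). After GC correction the median of all genes was 0.17 with siMESH1-CDS and 0.05 for the difference. Under GC correction 6 members were called with siMESH1-CDS, beside 67.6% of all genes: the calls of CCND3, CDK4 and CCNE1 were lost and that of CDKN1A was gained. A lane term gave 0.17 for CDKN1A with siMESH1-CDS, library size alone -0.071 for the CDKN1B difference, and DESeq2 and RLE scaling 0.12 and 0.12 for the RBL2 difference, none of them called. Leaving out single libraries gave -0.77 to 0.31 for CDKN1A with siMESH1-CDS and -0.0043 to 0.034 for CDK4 with siMESH1-7002, and differences of -0.20 to 0.27 for CDKN1B, -0.29 to 0.041 for RBL1 and -0.16 to 0.18 for RBL2. Without siMESH1-CDS replicate 3 all 10 members were called with siMESH1-CDS, as were 81.3% of all genes, and the call of CDKN1A then rests on replicates 1 and 2. Causes of these shifts were not tested. Among the siMESH1-CDS libraries the coefficient of variation was 68.4% for CDKN1A (1398 to 5008 reads) and 27.4% for CDKN1B (2577 to 4808 reads). The part of that spread in their missing calls as fitted was not tested. CCND2 with siMESH1-CDS and CCNE2 with siMESH1-7002 rest on fewer than 100 reads per library.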
